A study of Mus musculus with 6 samples.

Results

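Of 58 mouse genes of DNA replication and repair, 10 were named at a peak of Ikaros in natural killer (NK) cells. The share was 17.2%, against 9.55% of all protein-coding genes. Of the 10, 3 were named in all 3 peak lists, Mcm3, Orc4 and Nbn (5.17% of the 58, against 2.01%). The 58 genes were a fixed set of names out of 21887 protein-coding genes, chosen with earlier results of these data known. A gene counted as having a peak where the authors' gene column gave its name. Ikaros, the product of Ikzf1, is a zinc finger transcription factor of lymphoid cells. Chromatin immunoprecipitation with sequencing (ChIP-seq) with an antibody to it lists places of the genome enriched in the precipitate, called peaks. The libraries were 3 wild type (WT) samples of splenic NK cells expanded in 50 ng/ml IL-15, fixed in 2% formaldehyde for 10 min and precipitated with 2 µg of antibody. The series also holds 3 samples of NK cells in which Ikzf1 was deleted under control of NKp46, a receptor of NK cells, treated alike; these are not used here, and every value below is from WT cells. The labels give no strain, sex or age. Nor do they tie a library to its own animal or culture, so differences between lists may be technical. A peak list measures no expression, so NK cell markers could not be used to check the cell type, and a peak beside a gene does not say that Ikaros acts on it. The control library of the peak calls is not given, and the samples with Ikzf1 deleted are not used. Whether a given peak marks Ikaros itself was therefore not tested.

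Before S phase, the origin recognition complex (Orc proteins) with Cdc6 and Cdt1 loads a ring of MCM helicase subunits onto DNA, an act called licensing. Cdc45 and the GINS proteins then turn the ring into an active helicase, and polymerases alpha, delta and epsilon copy the opened strands with the sliding clamp PCNA. Breaks in DNA are sensed by the MRN complex (Mre11a, Rad50, Nbn) and the kinases ATM and ATR, and are mended by homologous recombination or by end joining. IL-15, the cytokine used to expand the cells, drives NK cells to divide.

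The sequences before gene starts that a peak overlapped are shown first, since 5 of the 10 genes had their peak over a start. A promoter window is the 300 bases from 250 before to 50 after a gene start, as given by RefSeq for GRCm38.p6, the same assembly as mm10, the build of the peak lists. The table held a window for 49 of the 58 genes, and those of Mcm3, Orc4, Pcna, Xrcc6 and Mre11a overlapped a peak. Below are the 250 bases before each start, 5′ to 3′ along the gene, with GGGAA, the core of the Ikaros motif, in capitals on either strand (TTCCC on the other strand).
Mcm3 (chr1:20820313-20820562, minus strand): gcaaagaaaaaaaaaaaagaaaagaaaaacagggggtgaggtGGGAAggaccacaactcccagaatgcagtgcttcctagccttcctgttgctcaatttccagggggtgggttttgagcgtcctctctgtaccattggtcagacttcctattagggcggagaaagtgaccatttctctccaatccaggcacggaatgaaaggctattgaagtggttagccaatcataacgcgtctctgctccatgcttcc
Orc4 (chr2:48949268-48949517, minus strand): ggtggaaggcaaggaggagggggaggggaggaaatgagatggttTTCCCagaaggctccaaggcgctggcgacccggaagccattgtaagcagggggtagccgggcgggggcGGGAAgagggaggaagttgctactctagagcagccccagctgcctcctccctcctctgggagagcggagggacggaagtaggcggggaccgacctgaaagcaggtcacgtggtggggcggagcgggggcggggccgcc
Pcna (chr2:132253181-132253430, minus strand): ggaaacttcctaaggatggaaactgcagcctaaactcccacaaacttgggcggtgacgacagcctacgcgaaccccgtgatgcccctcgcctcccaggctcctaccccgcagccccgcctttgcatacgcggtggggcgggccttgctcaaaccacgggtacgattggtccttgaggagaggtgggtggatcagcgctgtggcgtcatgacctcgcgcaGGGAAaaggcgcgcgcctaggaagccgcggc
Xrcc6 (chr15:82016119-82016368, plus strand): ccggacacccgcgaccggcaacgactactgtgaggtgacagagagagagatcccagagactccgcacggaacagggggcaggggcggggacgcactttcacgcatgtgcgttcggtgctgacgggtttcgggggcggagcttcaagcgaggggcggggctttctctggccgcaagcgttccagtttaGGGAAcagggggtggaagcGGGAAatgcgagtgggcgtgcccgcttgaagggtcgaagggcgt
Mre11a (chr9:14784404-14784653, plus strand): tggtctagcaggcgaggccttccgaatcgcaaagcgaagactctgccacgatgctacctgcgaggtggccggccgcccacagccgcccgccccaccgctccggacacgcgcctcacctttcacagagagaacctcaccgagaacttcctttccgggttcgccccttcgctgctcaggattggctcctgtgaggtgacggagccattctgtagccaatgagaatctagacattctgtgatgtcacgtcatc

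The 250 bases of Orc4 held 2 GGGAA matches, those of Xrcc6 2, those of Mcm3 and Pcna 1 each and those of Mre11a 0. Of these bases, peaks covered 156 to 250 in Mcm3, 188 to 250 in Orc4, 250 in Pcna, 133 in Xrcc6 and 31 in Mre11a. The Mre11a peak reached 281 bp past the start, and its bases beyond the window were not searched. In Orc4 the match at bases 138 to 134 before the start lay within the bases common to the peaks of all lists, and it overlapped a match to GGCGGGA, the core of a site for E2F factors, at bases 141 to 135. The Mcm3 match at bases 208 to 204 before the start was part of the longer form TGGGAA, as was the Orc4 match at bases 206 to 202. Both lay outside the bases common to all lists. The whole Mcm3 window held 3 GGGAA matches, and the other 2 crossed or followed the start and lay within those common bases. TGGGAA was in that window 2 times, so it also occurred across or past the start. In Pcna and Xrcc6 each match lay within the peaks. A match is a string of letters and was not tested as a binding site.

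Such matches were common in all promoters. GGGAA on either strand was in 83.9% of 56 windows of the 49 genes, against 63.0% of 21263 windows of all protein-coding genes. TGGGAA, which contains GGGAA, was in 32.1% of the windows of these genes and in 24.5% of all windows. GGCGGGA, which can overlap GGGAA, was in 35.7% of the windows of these genes and in 14.9% of all windows. Windows of 178 other replication and repair genes, described below, held GGGAA in 72.4%, TGGGAA in 24.4% and GGCGGGA in 31.4%. In protein-coding windows that peaks of 2 or more lists overlapped, the shares were 68.9%, 23.0% and 35.1%. Median GC content over the 250 bases was 60.8% for replication and repair genes and 55.6% for all windows, and the part of base composition in these shares was not tested. Within the set, GGGAA was in 4 of the 5 windows that a peak overlapped and in 43 of the 51 others.

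Peak lists were 685, 2084 and 1342 peaks long in WT replicates 1, 2 and 3, and these lengths set how many genes each could name. The lists give no read counts, so depth is unknown. Replication and repair genes had 3, 7 and 8 peaks in replicates 1, 2 and 3, which merged into 10 regions of 2526 in all. Named genes were 3 of 58 in replicate 1 (5.17%, 95% Clopper-Pearson interval 1.08 to 14.4), against 2.71% of all protein-coding genes. In replicate 2 they were 7 of 58 (12.1%, interval 4.99 to 23.3), against 7.8% of all protein-coding genes. In replicate 3 they were 8 of 58 (13.8%, interval 6.15 to 25.4), against 5.52%. Intervals here cover counting error over genes only.

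Over the lists together, 10 of 58 genes were named at least once (17.2%, interval 8.59 to 29.4), against 9.55% of all protein-coding genes. In 2 or more lists they were 5 of 58 (8.62%, interval 2.86 to 19.0), against 4.47%, and in all lists 3 of 58 (5.17%, interval 1.08 to 14.4), against 2.01%. Each of these 3 intervals holds the share of all genes, while the interval of replicate 3 alone begins above it. The differences themselves were not tested. As the 58 genes were chosen with earlier results of these data known, no interval here can show an excess. Replication and repair genes were also longer, with a median span of 24.7 kb against 17.2 kb for all protein-coding genes, and within the 58 the median was 34.6 kb for genes with a peak and 21.9 kb for genes without. The part of gene length in the counts was not tested. With replicate 2 or replicate 3 left out, 3 genes were in both remaining lists, and with replicate 1 left out 5 were. Replicate 1 named 3 genes, so no pair of lists with it could share more. Shares of all protein-coding genes over pairs of lists are not given. With only peaks of −log10 q of 5 or more, 4 of 58 genes were named, Mcm3, Orc4, Nbn and Pola2, against 3.77% of all protein-coding genes. All 4 were in 2 or more lists, against 1.87%, and 1, Mcm3, was in all lists, against 0.809%. With each list reduced to its 685 peaks of highest −log10 q, the same 4 genes were named, against 4.61% of all protein-coding genes in any list and 2.36% in 2 or more, and Mcm3 and Nbn but not Orc4 were in all lists, against 1.28%.

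**Figure D1:**
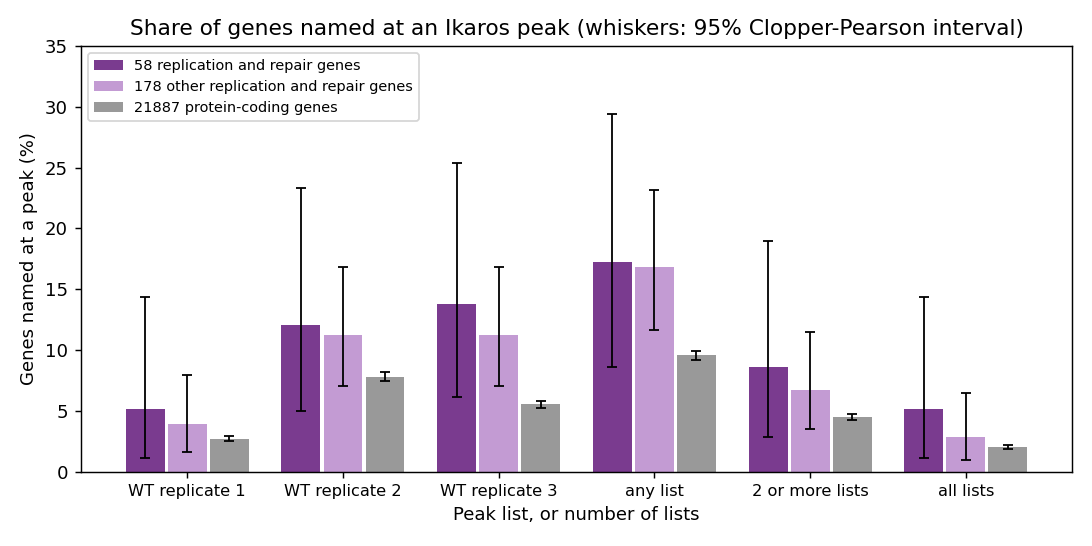
Share of genes named at a peak (y axis, percent) in each WT list and over the lists (x axis), for the 58 replication and repair genes, 178 other genes of the same processes and all 21887 protein-coding genes; whiskers are 95% Clopper-Pearson intervals. The 58 genes were at 17.2% in any list and all protein-coding genes at 9.55%, and the interval of the 58 genes reaches down to 8.59%.

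By role, peaks were spread thinly, with no more than 2 genes in any group. All MCM and single-stranded DNA binding genes were counted as replication genes here, also Mcm8 and Mcm9, which work in repair, and Nabp1. So grouped, 7 of 42 replication genes had a peak, Mcm9 among them, and 4 of the 7 were in 2 or more lists. Of 16 checkpoint and repair genes 3 had a peak, 1 of them in 2 or more lists. MCM helicase genes had 2 of 9 and the MRN complex 2 of 3. Origin recognition had 1 of 6, helicase activation by Cdc45 and GINS 1 of 5, the clamp and its loader 1 of 6, polymerases and primase 1 of 7, joining of Okazaki fragments 1 of 2, and end joining 1 of 2. Licensing factors had 0 of 3, single-stranded DNA binding proteins 0 of 4, checkpoint kinases 0 of 4, homologous recombination 0 of 4, single-strand break repair 0 of 2 and mismatch repair 0 of 1. All protein-coding genes were at 9.55% in any list and 4.47% in 2 or more. Groups this small cannot tell 0 from such shares, and differences between roles were not tested.

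**Figure D2:**
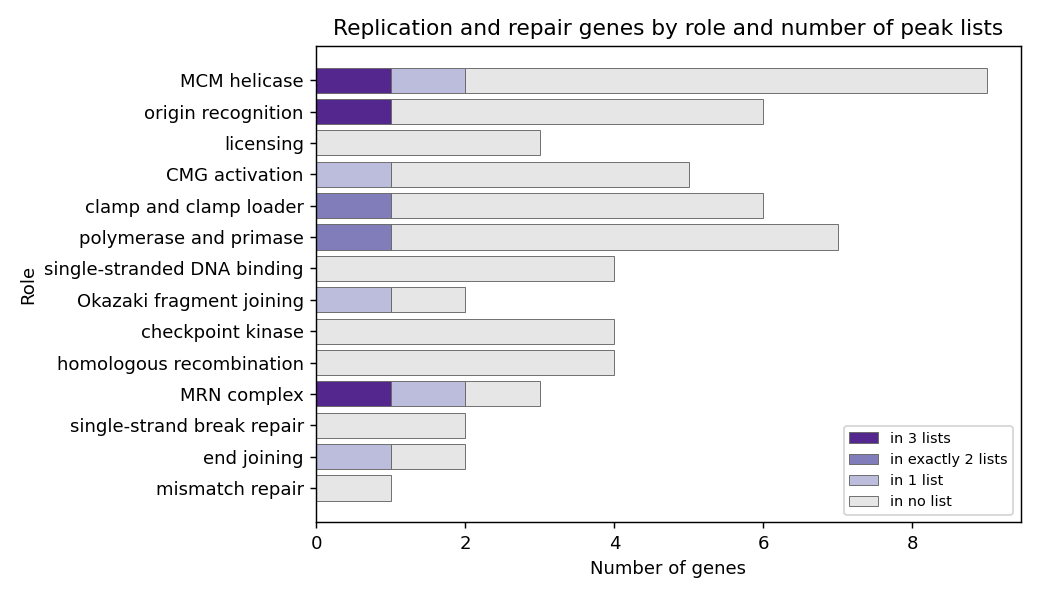
Number of genes (x axis) in each of 14 roles (y axis), shaded by the number of WT peak lists that named the gene. Mcm3, Orc4 and Nbn are the 3 genes in the darkest shade, and 48 of 58 genes are in no list.

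Mcm3, a subunit of the replicative helicase, had the highest ranked peak of these genes in every list. Its region was on chromosome 1, 20820120 to 20820575 (mm10), over the start of the gene (ENSMUSG00000041859, 20802966 to 20820312). Fold enrichments, the authors' linear ratio for each peak, were 8.63, 9.87 and 9.06 in replicates 1, 2 and 3. Percentiles, which rank fold enrichment within a list with 100 as the strongest peak, were 94.0, 96.4 and 94.4 (mean 94.9, SD 1.28, n = 3). Of the 3 genes in all lists it varied least in rank, while its midpoints were farther apart than those of Orc4. The −log10 q values were 12.3, 24.8 and 14.8. The peaks had 340 bp in common, and their midpoints were at 18, -6 and -38.5 bp from the gene start, negative being before it.

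Mcm9, a related helicase that works with Mcm8 in recombination repair, had a peak in replicate 3 alone. It was 33.3 kb into the 93.7 kb gene, on chromosome 10, 53596546 to 53596746, with a fold enrichment of 4.48 at percentile 31.2. Mcm2, Mcm4, Mcm5, Mcm6, Mcm7, Mcm8 and Mcm10 had none, so Mcm3 was the 1 subunit of the core helicase ring with a peak. Mcm2 was the nearest of these to a peak, at 40.9 to 41.1 kb in all lists.

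Orc4, a subunit of the origin recognition complex, had peaks in all lists with uneven ranks. The region was on chromosome 2, 48949171 to 48949547, inside the gene span (ENSMUSG00000026761, 48902824 to 48952902) and over an annotated start that lies within that span. Fold enrichments were 5.996, 5.46 and 4.09 in replicates 1, 2 and 3, at percentiles of 76.8, 70.9 and 17.7 (mean 55.1, SD 32.6, n = 3). It ranked above the middle of the lists of replicates 1 and 2 and below it in replicate 3. Midpoints were at -99.5, -92 and -88 bp from that start, within 11.5 bp of each other. The 377 bp peak of replicate 2 also reached Mbd5, by the authors' gene column, while the peaks of 250 bp in replicate 1 and 201 bp in replicate 3 named Orc4 alone. Orc1, Orc2, Orc3, Orc5 and Orc6 had none, and neither had the licensing genes Cdc6, Cdt1 and Gmnn, the last encoding the Cdt1 inhibitor geminin.

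Gins4, a subunit of the GINS complex, had a peak in replicate 2 alone, with a fold enrichment of 4.94 at percentile 56.8. It was the 1 peak of the 10 genes that did not overlap its gene, at 68 bp by the authors' distance, on chromosome 8, 23237728 to 23237955. Cdc45, Gins1, Gins2 and Gins3 had none.

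Pola2, the regulatory subunit of polymerase alpha, had a strong peak away from its start. The region was on chromosome 19, 5956625 to 5956894, 7.45 kb into the gene (ENSMUSG00000024833, 5940543 to 5964238). Fold enrichments were 7.05 and 7.58 in replicates 2 and 3, at percentiles of 89.3 and 90.4, with −log10 q of 8.64 and 9.93. The ranks differed little between these lists, and the nearest peak of replicate 1 was 250.8 kb from the gene. Pola1, Pold1, Pold3, Pole, Pole2 and Prim1 had none. Exons and introns were not assigned here.

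Pcna, the sliding clamp, had the weakest of the peaks that recurred. Its peaks covered the gene start on chromosome 2, 132252651 to 132253502, in replicates 2 and 3 (ENSMUSG00000027342, 132249286 to 132253180). Fold enrichments were 3.67 and 3.71, at percentiles of 8.59 and 4.92. The −log10 q values of 1.57 and 1.20 were close to the lowest of those lists, 1.06 and 1.12. At 838 and 829 bp these were the widest peaks of the 10 genes, against list medians of 292.5 and 294 bp, and AV099323 was named with Pcna in both. The clamp loader genes Rfc1 to Rfc5 had none. Lig1, the ligase that joins Okazaki fragments, had a peak in replicate 2 alone, 23.7 kb into the gene on chromosome 7, 13302838 to 13303062, with a fold enrichment of 4.11 at percentile 25.6. Fen1, the flap nuclease of the same step, had none.

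Nbn, which encodes nibrin of the MRN complex, was the repair gene named in all lists. The region was on chromosome 4, 15957819 to 15958582, inside the gene (ENSMUSG00000028224, 15957587 to 15992589) with its midpoint 0.614 kb from the nearer end. Fold enrichments were 4.16, 7.09 and 7.41 in replicates 1, 2 and 3, at percentiles of 14.5, 89.5 and 89.6 (mean 64.5, SD 43.3, n = 3). The peak was among the stronger ones in replicates 2 and 3 and among the weaker ones in replicate 1, where its −log10 q was 1.95, against 10.8 in replicate 2 and 10.5 in replicate 3. Its width was 431 bp in replicate 1, and 742 and 676 bp in replicates 2 and 3.

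Mre11a, the nuclease of the same complex, had a weak peak over its start in replicate 3 alone, with a fold enrichment of 3.78 at percentile 6.33 (chromosome 9, 14784623 to 14784935). The gene Ankrd49 was named with it. Rad50, the third member of the complex, had none. Xrcc6, which encodes Ku70, a subunit of the Ku dimer that holds broken ends for joining, also had a weak peak in replicate 3 alone, with a fold enrichment of 3.76 at percentile 5.96 (chromosome 15, 82016236 to 82016440). That peak lay inside the gene span (81987833 to 82040085), over an annotated start that lies within the span, as at Orc4. Xrcc6 was named together with Desi1, and Xrcc5, the other Ku gene, had none. The 5 genes with a peak in 1 list were 130.7 kb or more from any peak of the lists that did not name them.

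**Figure D3:**
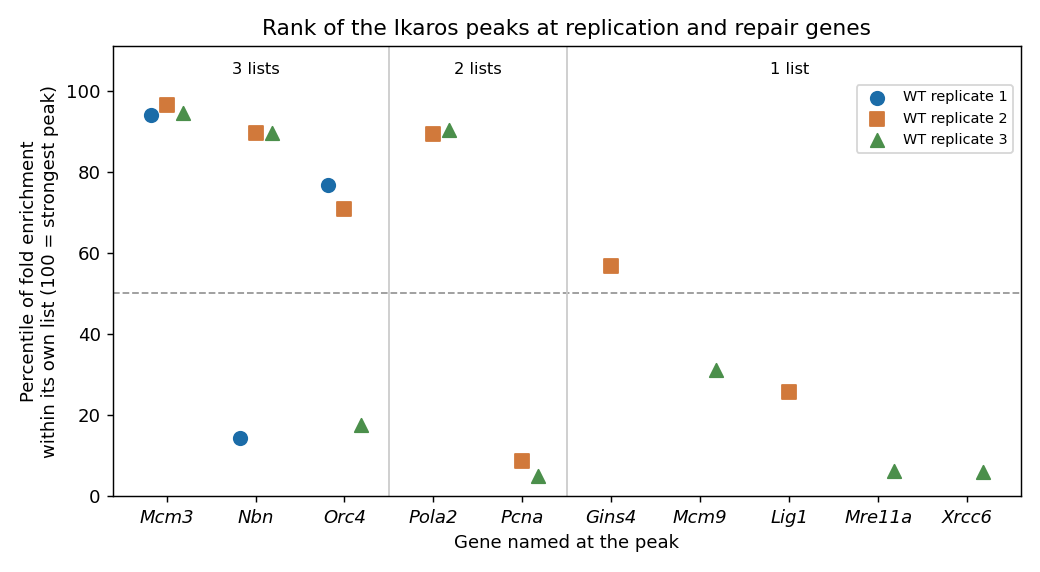
Percentile of fold enrichment within its own list (y axis, 100 is the strongest peak) for each peak of the 10 genes (x axis), by WT replicate; the dashed line is the middle of a list. Mcm3 sits at 94.0 to 96.4 in all lists, while Nbn runs from 14.5 to 89.6 and Orc4 from 17.7 to 76.8.

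Taken by list, the median percentile of the peaks of these genes was 76.8, 70.9 and 24.4 in replicates 1, 2 and 3 (mean 57.4, SD 28.7, n = 3), against 50 for a whole list. The SD between lists exceeded the distance of their mean from 50. The peaks covered most of the range of ranks: Mcm3 in all lists and Nbn and Pola2 in replicates 2 and 3 were at percentile 89 or more, both Pcna peaks, Mre11a and Xrcc6 were under 10, and the rest, at Orc4, Gins4, Mcm9, Lig1 and, in replicate 1, Nbn, ran from 14.5 to 76.8.

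The place of the regions along their genes was set beside that of all regions. With a midpoint within 1 kb of the nearest annotated start, or of the nearer gene end for Nbn and Gins4, 7 of 10 regions counted, 5 of them by an annotated start and 2 by a gene end (70%, interval 34.8 to 93.3), against 60.7% of 2276 pairs of a region and its named gene over all protein-coding genes (interval 58.6 to 62.7). The interval of the 10 regions holds the share of all pairs, and the difference was not tested. The median distance was 0.149 kb for these genes and 0.371 kb for all pairs. The exceptions were Pola2, Lig1 and Mcm9. Promoter windows were overlapped by a peak in 5 of 49 genes (10.2%), against 5.88% of 17492 protein-coding genes with a window. In 2 or more lists it was 3 of 49 (6.12%), Mcm3, Orc4 and Pcna, against 2.73%, and in all lists 2 of 49 (4.08%), Mcm3 and Orc4, against 1.18%.

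**Figure D4:**
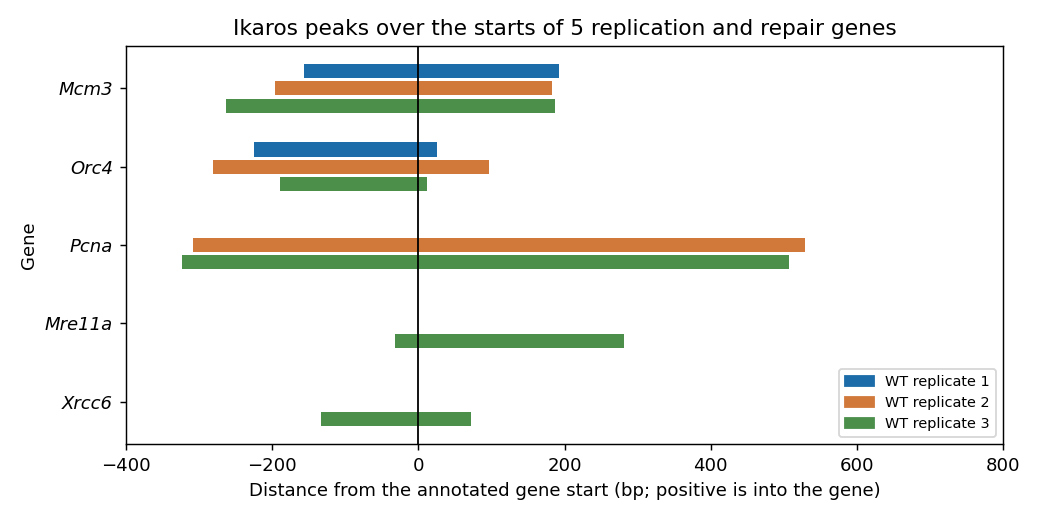
Extent of each peak (bars) relative to the annotated gene start (x axis, bp, positive into the gene) for the 5 genes whose promoter window overlapped a peak, by WT replicate. Peaks of Mcm3 reach from 156 to 263 bp before the start to 183 to 192 bp after it, and those of Pcna reach 506 and 529 bp into the gene.

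The other 48 genes were named in no list. Their spans lay 1.34 to 6066 kb from the nearest peak of any list, with a median of 164.6 kb. Over all protein-coding genes that no peak overlapped, the median was 236.1 kb, and the difference was not tested. Of the 48 genes, 5 lay within 50 kb, and the share of all genes within 50 kb is not given. Atr, the kinase that answers stalled forks, was the closest: a peak lay 1.34 kb from it in replicate 1 and 1.37 kb in replicate 2, on chromosome 9, at percentiles of 57.1 and 79.8, and the authors' column named Xrn1 and Gm16794 there. Prim1, the catalytic subunit of primase, lay 5.61 kb from a peak of replicate 1 named for Naca, at percentile 38.0. Rfc5, Brca2 and Mcm2 lay 21.7, 24.4 and 40.9 kb from a peak. Counting genes within 10 kb of a peak thus added Atr and Prim1, for 12 of 58 genes in any list against 12.4% of all protein-coding genes, 6 of 58 in 2 or more lists against 6.16%, and 3 of 58 in all lists against 2.8%. Among the remaining genes with no peak were Atm, Chek1 and Chek2 of the checkpoint, Brca1, Palb2 and Rad52 of homologous recombination, Xrcc1 and Parp1 of single-strand break repair, Msh6 of mismatch repair, and the single-stranded DNA binding genes Rpa1, Rpa2, Rpa3 and Nabp1. Brca1 lay 75.4 to 75.5 kb from a peak present in all lists and named for Rdm1 and Gm23849.

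A wider list of 178 genes of replication and repair was set beside the 58. Of these, 30 were named in any list (16.9%, interval 11.7 to 23.2), 12 in 2 or more lists (6.74%, interval 3.53 to 11.5) and 5 in all lists (2.81%, interval 0.918 to 6.43), against 9.55%, 4.47% and 2.01% of all protein-coding genes. The 5 were Ogg1, Slx1b, Pole4, Smc6 and Wdr48, and the other 7 were Fancc, Brip1, Smc5, Ppm1d, Stag1, Ints3 and Topors. With replicate 2 or replicate 3 left out, 5 of the 178 were in both remaining lists. Replicate 1 named 7 of the 178, so no pair of lists with it could share more than 7. Shares of all protein-coding genes over such pairs are not given. Cohesin and SMC genes had 3 of 10 members in 2 or more lists and homologous recombination genes 3 of 29, against 4.47% of all protein-coding genes. In any list they had 4 of 10 and 5 of 29, against 9.55%. No other role had more than 1 gene in 2 or more lists. In any list, damage signalling had 6 of 20, polymerases and primase 4 of 17, and single-strand break and base excision repair 3 of 19. Tolerance had 2 of 8, Fanconi anaemia genes 2 of 12, replication initiation and fork genes 2 of 22, topoisomerase genes 1 of 6 and nucleotide excision 1 of 15. Nucleotide supply, end joining and mismatch repair had 0 of 8, 0 of 6 and 0 of 6 in any list. Groups this small cannot tell 0 from 9.55%, and differences between roles were not tested.

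Among them Ogg1, the glycosylase that removes oxidised guanine, ranked highest, on chromosome 6, 113326681 to 113327015. Its fold enrichments were 6.58, 8.93 and 7.11 in replicates 1, 2 and 3, at percentiles of 85.1, 95.2 and 88.1. Pole4, an accessory subunit of polymerase epsilon, had percentiles of 50.7, 82.0 and 57.5, whereas Pole and Pole2 of the same enzyme had no peak. Slx1b, a structure-specific nuclease subunit, had percentiles of 52.3, 83.2 and 90.7. Smc6, of the SMC5-SMC6 complex, had 34.0, 43.9 and 79.3, and its partner Smc5 had 51.5 and 47.6 in replicates 2 and 3. Fancc, of the Fanconi anaemia core complex, had 77.2 and 87.1 in replicates 2 and 3. Wdr48, a cofactor of the deubiquitinase USP1, had 21.2, 34.6 and 65.9 in replicates 1, 2 and 3. In replicates 2 and 3, Brip1, a helicase partner of BRCA1, had 66.1 and 56.3. Ppm1d, a phosphatase that ends checkpoint signalling, had 51.3 and 43.7 there, and the cohesin gene Stag1 had 73.5 and 20.3. None of these reached the ranks of Mcm3 in the same lists, and the closest were Ogg1 in replicates 1 and 2 and Slx1b in replicate 3. Regions within 1 kb of a start (21 genes) or, with no listed start, of the nearer gene end (3 genes) made up 24 of 30 in this wider list (80.0%, interval 61.4 to 92.3), against 60.7% of all pairs.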

How the data were processed

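Ikaros ChIP-seq was analysed from 3 peak lists, 1 for each WT library, each tied to its sample by the library name in the peak names. The submitters' processing notes name MACS2, Subread, SAMtools, Picard and edgeR 3.20.0, with build mm10; the part each tool played, the control library, thresholds and gene annotation are not given in the sources used here. Per the file headers, the authors deposited for each peak a fold enrichment (a linear ratio), −log10 p and q values, and a score, which was not used. The gene name and its distance are the authors' too, per those headers. Depth per library is unknown.

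Rows were reduced to 1 per peak for ranks, and peaks of different lists that overlapped by 1 base or more became 1 region. Gene names were matched to RefSeq (GRCm38.p6) by symbol or by a synonym of 1 gene: 2083 of 2145 protein-coding names matched (97.1%). Promoter sequences came from RefSeq with that build; Mcm4, Gins1, Gins2, Gins4, Gmnn, Nbn, Pole, Rad50 and Rfc2 had no entry. On 805 overlapping windows of opposite strands, 805 were reverse complements. Distances run from a midpoint to the nearest listed start. With 1 group of lists and no control list, no test between groups was possible, and shares are set beside those of all protein-coding genes.

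The 58 genes were chosen with earlier results of these data known. All genes of the set with a peak are named; of the 178 others, those in 2 or more lists are named, and the 10 of highest mean percentile among these have values. On simulated peaks, merging recovered 200 of 200 shared regions. Python 3.11.15, NumPy 2.4.6, pandas 2.3.3, SciPy 1.17.1 and matplotlib 3.10.9 were used.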

Additional observations from a re-analysis of the deposited data

How the results depend on the processing

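No paired analysis was possible because all values come from WT lists, and KO samples are not used here. Depth is unknown, so a gene with no peak cannot be told from one whose peak was too weak to be listed. At a −log10 q of 5 or more, 4 genes of the 58 had a peak in any list, against 3.77% of all protein-coding genes. In all lists it was 1, Mcm3, against 0.809%. The median percentile was 88.4, and 3 of the 178 other genes were in 2 or more lists, against 1.87% of all protein-coding genes. A stricter limit leaves fewer and stronger peaks by construction. With each list reduced to the length of the shortest, 4 of the 58 genes were in any list, 4 in 2 or more lists and 2 in all lists, without Orc4. All protein-coding genes were then at 4.61%, 2.36% and 1.28%. Of the 178, 6 were in 2 or more lists, against the same 2.36%. With RefSeq spans within 10 kb of a peak, 20 of the 178 were in 2 or more lists, against 6.16% of all protein-coding genes. By the authors' gene column it was 12 of the 178, against 4.47%. The cause of the rise was not tested.

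Leaving out 1 replicate, genes of the 58 ranged from 7 to 10 in any list and from 3 to 5 in both remaining lists. The other genes in 2 lists ranged from 5 to 12, the median percentile from 47.7 to 73.8 and the share near a start from 70.0% to 75.0%. Shares of all protein-coding genes with 1 replicate left out are not given, so these counts have none beside them. Requiring peaks to share a merged region or 50% of the shorter peak, or to lie within 5 kb by the authors' distance, changed none of the counts it was run on. Limits of 5 and 0.5 kb gave shares near a start of 70.0% and 60.0%.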

Other observations

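Some repair genes lay close to a peak that the authors' column gave to a neighbour; these genes were chosen after their values were seen. Rad17, which loads the checkpoint clamp, lay 0.189, 0.211 and 0.202 kb from a peak named for Marveld2 in replicates 1, 2 and 3, at percentiles of 81.0, 88.1 and 88.8. Aptx, a repair hydrolase, lay 0.664, 0.632 and 0.622 kb from a peak named for Dnaja1 and Gm6297, at percentiles of 41.9, 45.4 and 66.2. The nuclease gene Gen1 overlapped, by its RefSeq span, the peaks named for Smc6 in all lists. Ercc2, a helicase of nucleotide excision repair, lay 8.31, 8.30 and 8.37 kb from a peak named for Klc3, at percentiles of 92.7, 76.9 and 73.2. Rnaseh2a lay nearer than Ercc2, at 6.71, 6.75 and 6.80 kb from a peak named for Junb in replicates 1, 2 and 3. Its percentiles were lower, at 10.1, 52.9 and 45.8. Rad51d lay 0.590 and 0.627 kb from a peak named for Rffl in replicates 2 and 3. Ung lay 2.06 and 2.00 kb from a peak named for Alkbh2 in the same replicates, at percentiles of 31.6 and 60.7. Further genes within 10 kb of such a peak are not listed. None of these genes near a neighbour's peak is among the 12 of the wider list named in 2 or more lists.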
